A study of Mus musculus with 46 samples.

Results

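The potassium channel and subunit genes described here are the mouse genes whose symbol starts with Kcn, without the Kcna, Kcnc, Kcnq and Kcnh families. The deposited table of 23335 genes held 69 such genes, and 49 of them had at least 50 counts in all cells together. The other 20 were too rare to describe, among them every listed Kcne gene, which code small accessory subunits. All 49 passed the filter on low counts, and together they held 0.359% of all counts. The counts of 10 of the 49 (Kcnma1, Kcnj6, Kcnj12, Kcnj16, Kcnab2, Kcnip1, Kcnip3, Kcnip4, Kcnd3 and Kcnt1) lay to more than 10% in values that were not whole numbers to within 1e-06. No source used here says how such values arose, and the levels of these genes are uncertain where reads may have been shared with another gene.

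The study measured polyA RNA in 584 single GABAergic neurons of the frontal cortex, picked by red fluorescence in 46 libraries of 7 to 16 cells. Martinotti cells (62 cells, 4 libraries) came from layer 2/3 of Sst-Flp; CR-Cre; Ai65 females at postnatal day 35, and long-projecting cells (136 cells, 9 libraries) from Sst-Flp; Nos1-Cre; Ai65 males at day 28 or 29. Interneuron-selective cells (63 cells, 4 libraries) came from Vip-Flp; CR-Cre; Ai65 females at day 32, and CCK basket cells (64 cells, 4 libraries) from Vip-Flp; CCK-Cre; Ai65 males at day 39 or 40. PV basket cells (127 cells, 16 libraries) came from Pv-iresCre; Ai14 mice of both sexes at days 58 to 83, and chandelier cells from tamoxifen-induced Nkx2.1-CreER; Ai14 mice. Upper chandelier cells (80 cells, 5 libraries, 1 of them labelled Ai15) came from the border of layers 1 and 2/3 of females at days 40 to 58, and deep chandelier cells (52 cells, 4 libraries) from layers 5 and 6 of males at day 34. Every group is labelled wild type and carries a recombinase and a red reporter, so no group lacks them, and each type is defined by its driver lines and layer. Type, strain, age and sex change together in this design and cannot be told apart. Cells of an animal were summed, which gave 16 replicates: 4 for long-projecting cells and 2 for each other type. PV basket animals 7 and 8, and 9 and 10, were summed in pairs because 8 pairs of their libraries differed by only 1.22 to 1.72 times sampling noise, against at least 5.37 in every other pair. Both libraries of each such pair carried the same index sequence in neighbouring lanes, though their labels name different animals. Whether they hold the same cells was not tested. The number of distinct PV basket cells, and their sexes and ages, are therefore uncertain. Levels are in CPM, the counts of a gene scaled by the total counts of its replicate or library.

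Potassium channels carry the outward current that sets the resting potential, ends each action potential and spaces the next. Pore subunits of the voltage-gated families join silent or cytoplasmic partners that change their gating, calcium- and sodium-activated channels link the current to firing itself, and inward rectifiers and 2-pore channels hold the membrane near rest. Fast-spiking basket and chandelier cells are known for short action potentials, and somatostatin and VIP cells for broader ones with more adaptation.

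Replicates held 1203740 to 12324100 counts. Summed GABAergic markers (5 genes found) were at 2036 to 7563 CPM in every library. Sst was at 1080 to 1912 CPM in Martinotti and 1963 to 2707 CPM in long-projecting libraries and at most 10.8 CPM in any other, Vip was at 2115 to 5118 CPM in the interneuron-selective and CCK basket libraries, and Pvalb was at 778 to 1337 CPM in PV basket libraries. Calb2, the CR driver gene, was at only 33.7 to 196 CPM in Martinotti libraries, below its 339 to 659 CPM in interneuron-selective libraries. Long-projecting libraries held it at 53.6 to 378 CPM, so it did not set the Sst types apart. Nkx2-1 had a median of 57.2 CPM in upper but 16.3 CPM in deep chandelier libraries. Its medians were 16.9 CPM in Martinotti, 18.6 CPM in CCK basket and 19.3 CPM in PV basket libraries. Pvalb was at 154 to 527 CPM in upper and 0 to 553 CPM in deep chandelier libraries. Deep chandelier library 4 went against its label with Vip at 1918 CPM and Cck at 1375 CPM, where the other 3 had Vip at 2.75 CPM or less and Cck at 342 CPM or less. Upper chandelier library 1 held Vip at 374 CPM, and the other 4 held none. Oligodendrocyte markers (8 genes) summed to 2657 CPM in interneuron-selective library 3 and 4121 CPM in long-projecting library 2, against 249.8 CPM or less in all other libraries. Excitatory markers (6 genes) reached 103 CPM in Martinotti library 3 (41.5 CPM or less elsewhere), endothelial and mural markers (7 genes) 306 CPM in Martinotti library 4 (80.8 CPM or less elsewhere) and astrocyte markers (6 genes) 514 CPM in CCK basket library 3 (278 CPM or less elsewhere). These 3 libraries were left out only with their whole animals, 2 and 6. Calls that were lost without 1 of the 4 libraries with Vip or oligodendrocyte counts are given with the adjusted p of a fit without it.

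To show the sequence upstream of genes of 4 roles, each with a call in a type that passed in every fit made, the 250 bases before the start of Kcnmb4, Kcnt2, Kcnf1 and Kcnk13 are printed below, 5′ to 3′ on the gene's strand, from RefSeq on GRCm38.p6. Kcnmb4 codes an accessory subunit of the BK channel, Kcnt2 a sodium-activated channel, Kcnf1 a silent subunit and Kcnk13 a 2-pore channel. Capitals mark GGGCGG (the GC box) and CCAAT on either strand; these letters do not overlap each other here. TATAAA, TGACGTCA and CACGTG were searched too and are in none of the 4 windows.
Kcnmb4, chr10:116473524-116473773, minus strand: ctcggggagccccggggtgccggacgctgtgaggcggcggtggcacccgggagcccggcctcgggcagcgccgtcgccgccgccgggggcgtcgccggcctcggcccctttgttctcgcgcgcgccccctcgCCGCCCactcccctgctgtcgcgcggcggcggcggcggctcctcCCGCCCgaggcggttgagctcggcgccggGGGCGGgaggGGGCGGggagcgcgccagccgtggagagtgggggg
Kcnt2, chr1:140245468-140245717, plus strand: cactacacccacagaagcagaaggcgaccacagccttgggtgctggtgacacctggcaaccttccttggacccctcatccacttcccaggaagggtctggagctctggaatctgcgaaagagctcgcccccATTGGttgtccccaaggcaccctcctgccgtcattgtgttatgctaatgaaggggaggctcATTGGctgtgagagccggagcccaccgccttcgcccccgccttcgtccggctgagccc
Kcnf1, chr12:17176889-17177138, minus strand: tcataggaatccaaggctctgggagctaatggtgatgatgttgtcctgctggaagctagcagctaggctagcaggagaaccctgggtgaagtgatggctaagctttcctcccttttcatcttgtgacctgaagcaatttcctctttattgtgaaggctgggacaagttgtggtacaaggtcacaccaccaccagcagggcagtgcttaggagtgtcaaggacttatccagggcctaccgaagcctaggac
Kcnk13, chr12:99964249-99964498, plus strand: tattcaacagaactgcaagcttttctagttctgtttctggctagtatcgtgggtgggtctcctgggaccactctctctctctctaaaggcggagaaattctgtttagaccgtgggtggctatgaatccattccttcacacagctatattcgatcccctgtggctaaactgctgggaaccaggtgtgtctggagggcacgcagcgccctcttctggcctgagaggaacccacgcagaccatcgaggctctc
The Kcnmb4 window was 83.6% G or C with 43 CpG pairs and 4 GC boxes, where all 32851 promoter windows of the same table had a median of 52.4% and 6 CpG pairs and 32.7% held a GC box. The Kcnt2 window (61.6% G or C, 10 CpG pairs) held CCAAT at 2 places, each on the minus strand, against 33.8% of all windows with any. Kcnf1 (51.2%, 1 CpG pair) and Kcnk13 (52.8%, 8 CpG pairs) held no searched motif. Of the 49 genes, 37 had a window. A match is letters in a window and nothing more.

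Between the 7 types, 31 of the 49 genes differed (edgeR's quasi-likelihood test, Benjamini-Hochberg adjusted p under 0.05 over the 15533 genes tested), where 25% of all genes tested did. Each type was then set against the mean of the other 6 on the log2 scale, so that a type with no counts weighs on every such difference. Where a type held no count of a gene, no log2 difference is given. In Martinotti cells 8 members were called (5.6% of all genes), 3 higher (3.91%) and 5 lower (1.69%). Long-projecting cells had 13 (13.1%), 5 higher (9.71%) and 8 lower (3.4%). Interneuron-selective cells had 10 (10%), 6 higher (5.73%) and 4 lower (4.29%). CCK basket cells had 11 (6.3%), 10 higher (5.22%) and 1 lower (1.08%), and PV basket cells had 10 (3.89%), 8 higher (2.78%) and 2 lower (1.11%). Upper chandelier cells had 1 (1.91%), which was higher (1.56%), and none lower (0.341%). Deep chandelier cells had 15 (19.1%), 12 higher (12.3%) and 3 lower (6.79%). The upper chandelier share was near that of all genes, as were the higher calls in long-projecting cells and the lower calls in deep chandelier cells. Without interneuron-selective library 3, or without upper chandelier library 1, the Martinotti count was 5, and without the latter the upper chandelier count was 3. The shares of all genes called in those fits are not given here. The median log2 difference of the 49 was -0.24 in Martinotti, -0.30 in long-projecting, -0.16 in interneuron-selective, 0.22 in CCK basket, 0.67 in PV basket, -0.04 in upper chandelier and 0.12 in deep chandelier cells. Over all genes tested the same medians were 0.01, 0.10, -0.03, 0.04, 0.09, 0.05 and -0.08. With 2 replicates in most types the p-values measure the spread between these replicates, under 1 spread shared by all types. The labels number 18 animals, whereas the series' design text speaks of 4, and upper chandelier animal 14 carries 2 ages, 40 and 58 days. If libraries under different numbers came from 1 animal, that spread would be partly technical. Of the 49 genes, 8 reached 50 counts only through 1 type: Kcnv1 through long-projecting cells, Kcng4, Kcns1, Kcnk5 and Kcnj16 through PV basket cells, Kcnk9 and Kcnrg through CCK basket cells and Kcnmb3 through interneuron-selective cells. The higher calls of Kcnv1, Kcng4, Kcns1, Kcnk9, Kcnrg and Kcnmb3 in these types are within the counts above. They are no support, since these genes are members only through the same high level. In a summed level, fewer cells with a transcript and less of it per cell cannot be told apart.

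Of the 68 calls of a type against the other 6, 19 passed in all 24 other fits (16 leaving out 1 replicate and 8 with another tool, filter, spread, grouping of animals or left-out library). In long-projecting cells these were Kcnmb4, Kcnv1 (a member only through these cells), Kcnn3 and Kcnk10 (higher) and Kcnmb2, Kcnn2, Kcnj3, Kcnj6 and Kcnab2 (lower). In interneuron-selective cells they were Kcnt2, Kcnip3 and Kcnip4 (higher) and Kcnd2 (lower), and in CCK basket cells Kcnf1, Kcnip1 and Kcnt2 (higher). Kcnk13 in Martinotti cells and Kcnk13 and Kcnab2 in deep chandelier cells, all higher, completed them. Every PV basket call (10) and the upper chandelier call were lost in at least 1 fit that left out a replicate. With each type's own spread (limma), 32 of the 68 were lost, among them 13 of 15 in deep chandelier cells and 7 of 8 in Martinotti cells, where Kcnip4 was then at an adjusted p of 0.111 and Kcnn2 at 0.127. The share of calls over all genes that passed or were lost in these fits is not given here. These counts therefore cannot be read as particular to the channel genes. The 68 include the calls of Kcnv1, Kcng4, Kcns1, Kcnk9, Kcnrg and Kcnmb3 that are no support.

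**Figure D1:**
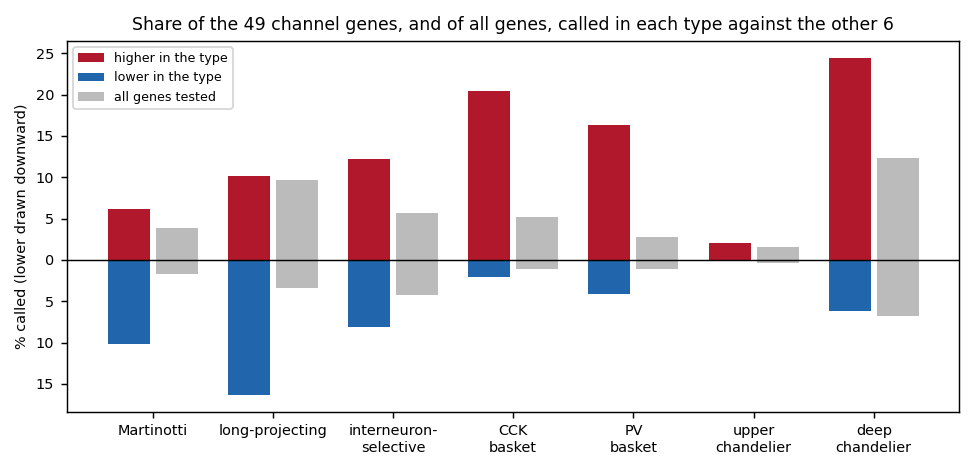
Bars give the percent of the 49 channel genes called higher (red, upward) or lower (blue, downward) in each type against the mean of the other 6, and grey bars the same percent of all 15533 genes tested. The upper chandelier bars show 1 higher call and no lower call.

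**Figure D2:**
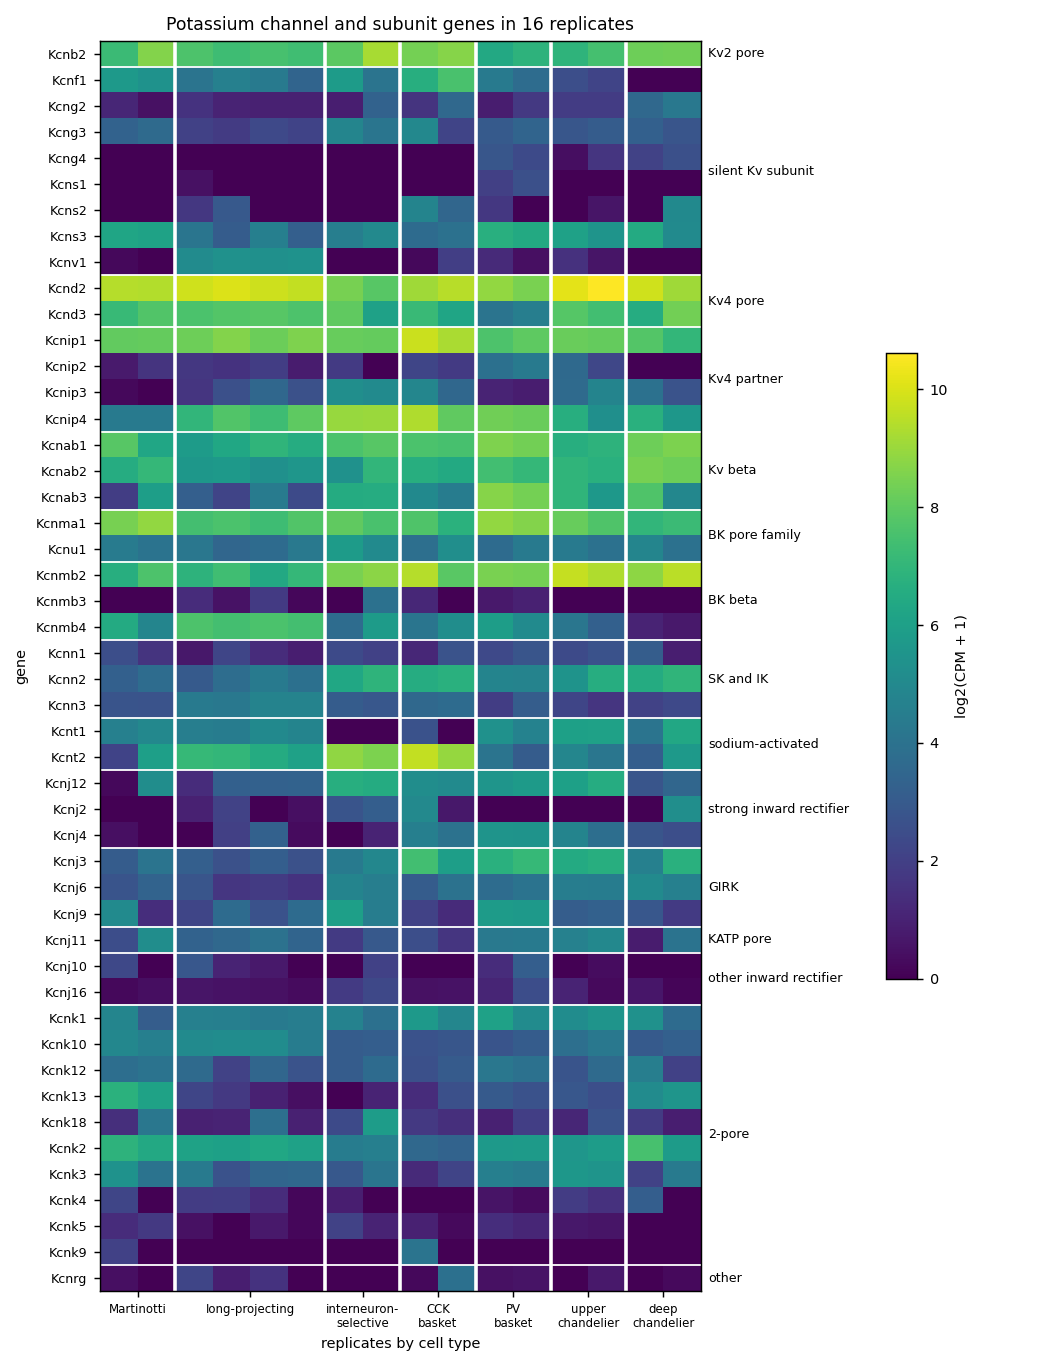
Colour gives log2(CPM + 1) of 48 of the 49 genes (rows, grouped by role) in each of the 16 replicates (columns, grouped by type). Kcnv1 is bright only in the 4 long-projecting columns, and Kcnf1 is at 0 in both deep chandelier columns.

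The BK channel, which opens to voltage and calcium together, showed opposite patterns of its accessory subunits. Kcnmb4, whose product slows BK gating, was at 199, 173, 195 and 173 CPM in the long-projecting replicates (animals 15 to 18). In deep chandelier cells it was at 1.11 and 0.635 CPM, and in the other 5 types at 8.54 to 89.0 CPM. The 4 long-projecting values lay above all 12 others, and the deep chandelier values below all 14 others. Kcnmb4 was thus 6.25 times the mean of the other types in long-projecting cells (log2 difference 3.50 ± 0.38 SE, edgeR adjusted p = 2.91e-05) and fell by 5.40 ± 0.88 on the log2 scale in deep chandelier cells (edgeR adjusted p = 0.0012), where it rested on 6 counts. The deep chandelier call was lost in limma when each type had its own spread (adjusted p = 0.229).

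Kcnmb2, whose product inactivates BK channels, was at 83.4 to 165 CPM in long-projecting cells and at 99.2 and 201 CPM in Martinotti cells. All 10 replicates of the 5 other types were above these, from 240 to 815 CPM. The 2 somatostatin types were both called lower than the rest (log2 difference -1.58 ± 0.29, edgeR adjusted p = 0.00257, and -1.45 ± 0.40, adjusted p = 0.0473), and deep chandelier cells (445 and 720 CPM) higher. The Martinotti call was lost without interneuron-selective library 3 (edgeR adjusted p = 0.0763), deep chandelier library 4 (0.0501) or upper chandelier library 1 (0.0508). It was also lost in 10 of 16 fits leaving out 1 replicate and in limma with each type's own spread (adjusted p = 0.108). Per 100 counts of Kcnmb2 there were 143 counts of Kcnmb4 in long-projecting cells (105 to 233 between animals), 54.4 in Martinotti cells (32.7 without library 2), 13.9 in PV basket cells, 9.45 in interneuron-selective cells, 5.03 in CCK basket cells (9.05 without library 1), 1.72 in upper chandelier cells and 0.130 in deep chandelier cells. The ranges of long-projecting cells and of every other type did not overlap.

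The pore gene Kcnma1 was among the most even members, at 109 to 469 CPM in all 16 replicates, a 3.13-fold range of type means. It was at 469 and 399 CPM in PV basket cells and called higher there (log2 difference 1.01 ± 0.23, edgeR adjusted p = 0.0268). Martinotti cells, at 346 and 469 CPM, passed narrowly (edgeR adjusted p = 0.0455) and did not pass without upper chandelier library 1 (0.0542). Kcnu1, whose pH-sensitive pore is known from sperm, was at 10.4 to 55.7 CPM with no call. Kcnmb3 is given with the genes found in single libraries.

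The small-conductance calcium-activated channels, which carry the afterhyperpolarization, split by gene. Kcnn3 was at 18.9, 18.0, 25.9 and 26.0 CPM in long-projecting cells and at 2.14 to 12.1 CPM in all other replicates, so that the groups did not overlap (log2 difference 2.12 ± 0.36, edgeR adjusted p = 0.00139). Kcnn2 was at 7.00 to 19.0 CPM in long-projecting and 8.60 and 12.5 CPM in Martinotti cells, and at 25.8 to 122 CPM in every other replicate. It was called lower in both somatostatin types (log2 difference -1.89 ± 0.35, edgeR adjusted p = 0.00237, and -2.43 ± 0.50, adjusted p = 0.0121). CCK basket cells (93.1 and 105 CPM) and deep chandelier cells (90.2 and 122 CPM) were called higher. Counts of Kcnn3 per 100 of Kcnn2 were 175 in long-projecting and 59.3 in Martinotti cells (36.3 to 103 with 1 library left out) and 3.42 to 18.4 in the other types. Kcnn1 was at 0.584 to 7.77 CPM with no call.

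**Figure D3:**
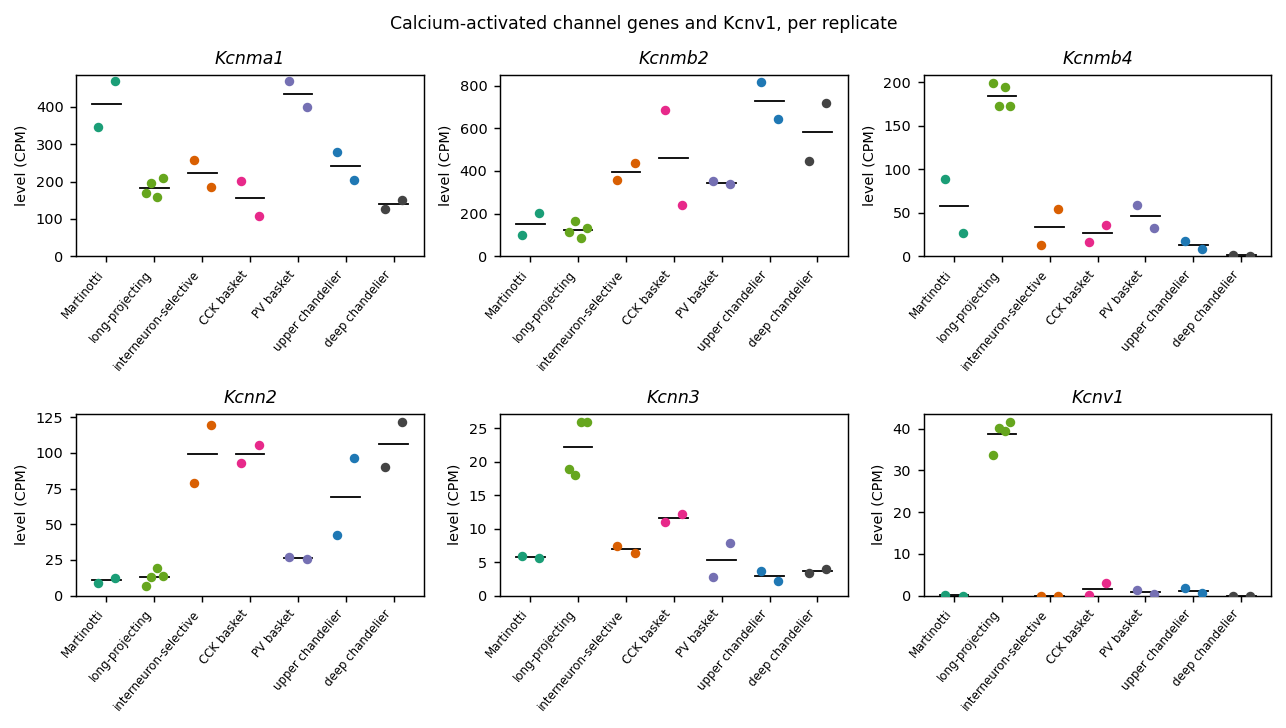
Points give the level in CPM of 6 genes in each replicate, by type, and lines the type means. Kcnmb4, Kcnn3 and Kcnv1 are high in the 4 long-projecting replicates, where Kcnmb2 and Kcnn2 are among the lowest.

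The sodium-activated channel genes Kcnt1 and Kcnt2 went opposite ways between types. Kcnt2 was at 785 and 482 CPM in CCK basket cells and 459 and 371 CPM in interneuron-selective cells, against 3.44 to 136 CPM in all others. The 2 Vip types stood wholly above the rest, and both were called higher than the mean of the others, by a log2 difference of 3.84 ± 0.53 (edgeR adjusted p = 0.000936) and 2.82 ± 0.56 (adjusted p = 0.00708). Kcnt1 had 0 counts in both interneuron-selective replicates, which a floor of 3 counts over the type puts at least 34.8-fold lower than the 33.7 CPM averaged over the rest, and 5.41 and 0 CPM in CCK basket cells. The other types held 16.1 to 81.4 CPM. The interneuron-selective difference passed (edgeR adjusted p = 0.0131), but did not pass without CCK basket animal 5 or without either interneuron-selective animal. In deep chandelier cells Kcnt1 was at 16.1 and 81.4 CPM and called higher, a call lost without animal 12 (edgeR adjusted p = 0.332). Per 100 counts of Kcnt2, Kcnt1 had 298 in upper chandelier, 274 in PV basket, 165 in deep chandelier, 119 in Martinotti and 25.0 in long-projecting cells, 0.472 in CCK basket cells and none in interneuron-selective cells. In Martinotti cells 80.2% of the Kcnt2 counts came from library 3, and in deep chandelier cells 86.9% from library 4, which went against its label. Without these libraries Kcnt1 had 456 counts per 100 of Kcnt2 in Martinotti and 774 in deep chandelier cells, so the order of these types by this ratio depends on single libraries.

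Kv2 channels carry slow delayed-rectifier current, and silent subunits, which make no channel alone, join them. Kcnb2 was at 84.5 and 116 CPM in PV basket cells and at 119 to 597 CPM elsewhere. It was called lower there (log2 difference -1.44 ± 0.37, edgeR adjusted p = 0.0481), a call that was lost in 10 of 16 fits leaving out 1 replicate and without interneuron-selective library 3 (edgeR adjusted p = 0.0621).

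Among the silent subunits, Kcnv1 was at 33.7, 40.1, 39.5 and 41.5 CPM in long-projecting cells. Its highest value elsewhere was 2.93 CPM in a CCK basket replicate, and interneuron-selective and deep chandelier cells held no count. The mean of 38.7 CPM was 63.2 times the 0.612 CPM mean of the other types (edgeR adjusted p = 2.45e-05). Kcnf1 was at 98.5 and 189 CPM in CCK basket cells, 52.6 and 41.1 CPM in Martinotti cells and 55.7 and 15.8 CPM in interneuron-selective cells. It was at 4.85 and 3.47 CPM in upper chandelier cells and had 0 counts in all 4 deep chandelier libraries, at least 109-fold lower than the rest (mean 43.9 CPM). The CCK basket values lay above all 14 others (7.20 times the mean of the rest, edgeR adjusted p = 7.2e-05), and the deep chandelier values below all others (adjusted p = 0.000324, but 0.171 in limma with a spread set for each type). Kcnf1 was also called higher in Martinotti (edgeR adjusted p = 0.00835) and interneuron-selective cells (0.0286). The interneuron-selective mean of 35.7 CPM was below the plain mean of the other types, 37.9 CPM, and the call was lost without interneuron-selective library 3 (0.117).

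Kcns3 was at 7.59 to 23.1 CPM in long-projecting cells, where it was called lower (log2 difference -1.64 ± 0.39, edgeR adjusted p = 0.0127), and at 102 and 85.2 CPM in PV basket cells. CCK basket cells, at 12.1 and 14.4 CPM, lay within the long-projecting range without a call. Kcns1 was found almost only in PV basket cells, at 3.08 and 5.07 CPM (81 counts, against 2 in all other types). No test is given for it, since it reached the minimum of 50 counts only through these cells. Kcng4 was at 6.17 and 4.25 CPM in PV basket, 3.33 and 5.08 CPM in deep chandelier and 0.303 and 2.14 CPM in upper chandelier cells, with no count in the Sst and Vip types. Deep chandelier cells were called higher for it (edgeR adjusted p = 0.00687), though not in limma with each type's own spread (adjusted p = 0.0736). Kcng2 was highest in deep chandelier cells, at 11.1 and 17.8 CPM (log2 difference 2.86 ± 0.67, edgeR adjusted p = 0.00961). Kcng3 had no call and reached 30.4 CPM at most.

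Kv4 channels carry the A-type current that delays firing, and the KChIP proteins of the Kcnip genes bind their pores. Kcnd2 was at 1165 and 1564 CPM in upper chandelier cells, the only member called there, against 230 to 1068 CPM in all other replicates (log2 difference 1.15 ± 0.20, edgeR adjusted p = 0.0113). The call was lost when either upper chandelier animal was left out. Interneuron-selective cells, at 350 and 230 CPM, were below all other replicates (log2 difference -1.58 ± 0.26, edgeR adjusted p = 0.00219). Long-projecting cells held 793 to 1068 CPM (log2 difference 0.68 ± 0.16, edgeR adjusted p = 0.0135).

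Kcnd3 was at 15.9 and 22.3 CPM in PV basket cells and at 66.5 to 325 CPM in every other replicate. PV basket cells thus held it at 0.108 times the mean of the other types (log2 difference -3.20 ± 0.56, edgeR adjusted p = 0.00609). Without PV basket animals 7 and 8, or 9 and 10, it no longer passed (largest edgeR adjusted p = 0.155). Per 100 counts of Kcnd2 there were 4.38 of Kcnd3 in PV basket cells and 13.9 to 50.9 in the other types.

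Kcnip1 was at 865 and 606 CPM in CCK basket cells and at 129 to 399 CPM elsewhere, with no overlap (log2 difference 1.59 ± 0.21, edgeR adjusted p = 0.00062). Kcnip4 was at 18.9 and 19.0 CPM in Martinotti cells, below all 14 others at 37.8 to 643 CPM (log2 difference -3.48 ± 0.54, edgeR adjusted p = 0.00227). Interneuron-selective cells (509 and 522 CPM) and CCK basket cells (643 and 262 CPM) were called higher for it. The CCK basket call was lost without animal 5 (edgeR adjusted p = 0.19). Kcnip3, which also acts as a calcium-binding transcription factor, had 1 count in Martinotti cells, where the mean of the other types (15.0 CPM) was 125 times the pooled level (95% counting interval 22.4 to 4929, for counting error only). The Kcnip3 call (edgeR adjusted p = 0.00892) was lost without 1 of the Martinotti replicates (largest edgeR adjusted p = 0.0818). In interneuron-selective cells Kcnip3 was at 37.0 and 32.7 CPM, above all other replicates (log2 difference 2.97 ± 0.58, edgeR adjusted p = 0.00609). CCK basket cells (28.5 and 10.7 CPM) were called higher as well (edgeR adjusted p = 0.0273), but not without deep chandelier library 4 (0.0612). Kcnip2 was at 14.0 and 19.0 CPM in PV basket cells, above all others (edgeR adjusted p = 0.00885), and had 0 counts in deep chandelier cells, at least 13.0-fold lower than the rest (edgeR adjusted p = 0.0184).

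**Figure D4:**
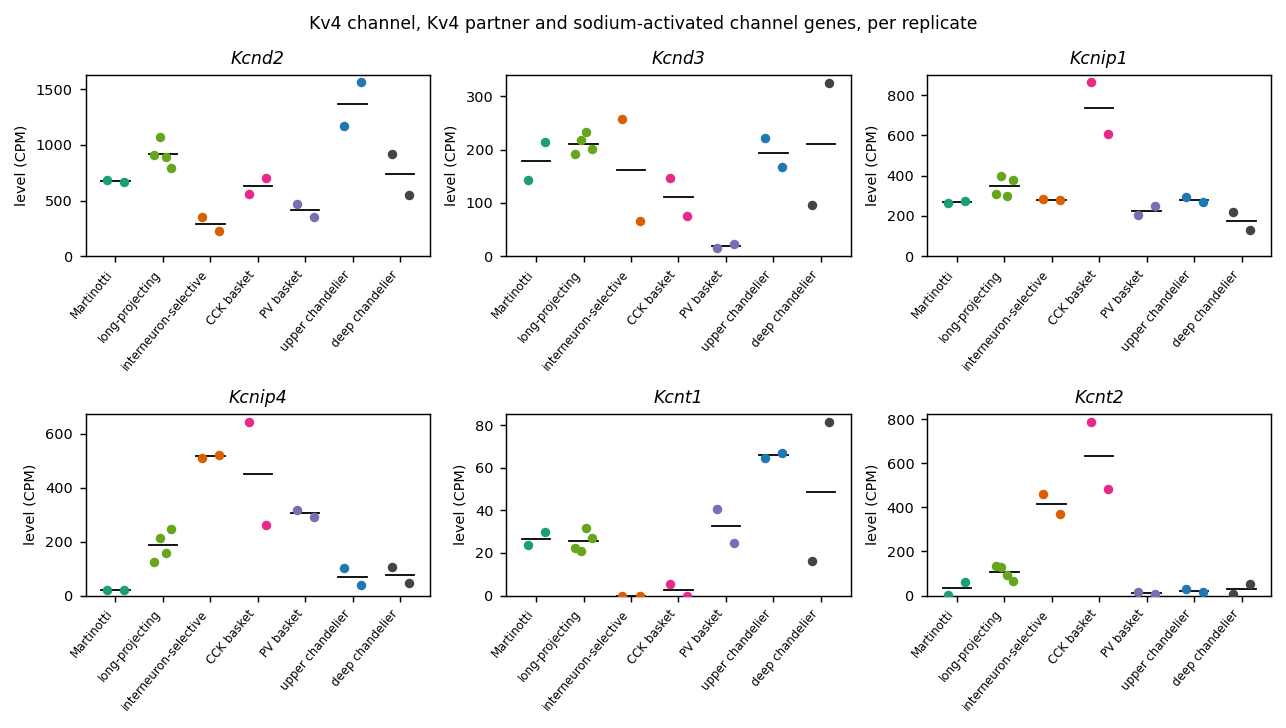
Points give the level in CPM of 6 genes in each replicate, by type, and lines the type means. Kcnd3 is near 0 on this axis in PV basket cells, Kcnip4 is lowest in Martinotti cells, and Kcnt2 is high where Kcnt1 is at or near 0.

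Cytoplasmic beta subunits of the Kcnab genes bind Kv1 channels and alter their inactivation and trafficking. Long-projecting cells were called lower for all 3. Kcnab2 was at 47.4, 50.7, 39.3 and 46.8 CPM there, against 40.7 to 345 CPM in the other types (log2 difference -1.41 ± 0.28, edgeR adjusted p = 0.00384). Kcnab1 was at 56.4 to 123 CPM (log2 difference -1.14 ± 0.28, edgeR adjusted p = 0.0148), and Kcnab3 at 3.47 to 20.2 CPM (-3.15 ± 0.77, adjusted p = 0.0139). All 3 overlapped with some replicates of other types. Deep chandelier cells had Kcnab2 at 345 and 305 CPM, above all others (log2 difference 2.03 ± 0.29, edgeR adjusted p = 0.000481), and Kcnab1 at 309 and 364 CPM. PV basket cells had Kcnab3 at 406 and 333 CPM, above all other replicates (2.75 to 206 CPM; log2 difference 3.06 ± 0.65, edgeR adjusted p = 0.0188). The PV call was lost when either PV basket replicate was left out (largest edgeR adjusted p = 0.236). In deep chandelier cells 80.0% of the Kcnab3 counts came from library 2 (425 CPM, against 0.715 to 45.6 CPM in the other 3).

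G protein-gated inward rectifiers, which carry the slow inhibition set off by GABA-B and other receptors, were found in all types. Kcnj3, an obligate partner in most such channels, was at 5.17 to 8.37 CPM in long-projecting cells and 7.39 and 16.1 CPM in Martinotti cells. In the other types it was at 19.1 to 169 CPM. Long-projecting cells were called lower (log2 difference -2.93 ± 0.46, edgeR adjusted p = 0.000658). Martinotti cells passed at 0.0499 and did not pass without interneuron-selective library 3 (0.0616), and CCK basket (169 and 60.1 CPM) and PV basket cells (106 and 138 CPM) were called higher. The PV basket call was lost without deep chandelier library 4 (edgeR adjusted p = 0.0574) and the CCK basket call without animal 5 (0.474). Kcnj6 was at 1.91 to 6.03 CPM in long-projecting cells (log2 difference -2.27 ± 0.47, edgeR adjusted p = 0.00521) and at 33.2 and 23.9 CPM in deep chandelier cells (1.60 ± 0.47, adjusted p = 0.0287). Interneuron-selective cells (26.8 and 22.0 CPM) overlapped the deep chandelier values, and upper chandelier cells (21.9 and 21.2 CPM) were close to them. The deep chandelier call was lost in 3 of 16 fits leaving out 1 replicate and in limma with each type's own spread (adjusted p = 0.302). Kcnj9 was at 55.3 and 51.5 CPM in PV basket cells, called at the threshold (edgeR adjusted p = 0.0499), and did not pass in 13 of 16 fits leaving out 1 replicate, nor without deep chandelier library 4 (0.0732). Interneuron-selective cells held it at 62.3 and 21.6 CPM and Martinotti cells at 32.8 and 1.61 CPM, so PV basket cells did not stand above all others.

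Strongly rectifying channels clamp the resting potential. Kcnj4 was at 43.9 and 43.2 CPM in PV basket cells, above all others (0 to 26.4 CPM; log2 difference 3.77 ± 0.86, edgeR adjusted p = 0.0259). The call was lost without either PV basket replicate and without upper chandelier animal 14 (largest edgeR adjusted p = 0.225). Kcnj12 ranged from 0.172 to 101 CPM and was highest in an interneuron-selective (101 CPM) and an upper chandelier replicate (95.02 CPM), but its differences between types did not pass (edgeR adjusted p = 0.0896). In Martinotti cells 96.7% of the Kcnj12 counts came from library 3, the one with the most excitatory marker counts. Kcnj11, the pore of ATP-sensitive channels, was at 0.740 to 36.3 CPM with no call, and its partner gene Abcc8 was at 0.801 to 14.7 CPM. The glial channel genes Kcnj10 and Kcnj16 stayed at 8.02 CPM or less in every replicate.

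2-pore channels carry leak current. Kcnk13 was at 109 and 67.4 CPM in Martinotti cells and at 34.0 and 45.9 CPM in deep chandelier cells, above the 0 to 7.06 CPM of all other replicates. Neither type overlapped any other, and the Martinotti values lay above the deep chandelier ones. Against the mean of the other 6 types the log2 difference was 4.35 ± 0.55 (edgeR adjusted p = 0.000363) and 3.29 ± 0.58 (adjusted p = 0.00178). Interneuron-selective cells had 2 counts, 0 and 1.06 CPM, where the mean of the other types was 37.5 times the pooled level (95% counting interval 10.4 to 309.9), and were called lower (edgeR adjusted p = 0.0329). In Martinotti cells library 2 held 71.5% of the Kcnk13 counts at 184 CPM, and the other 3 held 22.9 to 73.6 CPM.

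Kcnk10, a mechano- and lipid-sensitive channel, was at 32.5, 34.7, 34.4 and 21.0 CPM in long-projecting cells and 28.9 and 23.0 CPM in Martinotti cells. All other replicates were at 5.33 to 18.1 CPM. Long-projecting cells were called higher (log2 difference 1.71 ± 0.31, edgeR adjusted p = 0.00212). Its near relative Kcnk2 was at 11.0 and 9.42 CPM in CCK basket cells and 20.8 and 22.7 CPM in interneuron-selective cells, below all 12 replicates of the other types (46.7 to 186 CPM). Both Vip types were called lower (log2 difference -2.49 ± 0.48, edgeR adjusted p = 0.00644, and -1.52 ± 0.45, adjusted p = 0.0459). Interneuron-selective cells did not pass without deep chandelier library 4 (edgeR adjusted p = 0.0609) or in 12 of 16 fits leaving out 1 replicate. The CCK basket call was lost without either CCK basket animal. In limma with each type's own spread neither Vip type passed (adjusted p = 0.239 in interneuron-selective and 0.0687 in CCK basket cells). In deep chandelier cells, at 186 and 55.0 CPM, Kcnk2 was called higher, and the call was lost without animal 11 (edgeR adjusted p = 0.27). Kcnk1, Kcnk3, Kcnk4, Kcnk5 and Kcnk12 had no call in any type.

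Several calls rested on single libraries. In deep chandelier cells every count of Kcnj2, a strong inward rectifier, and of Kcns2, a silent subunit, came from library 4 (96.6 and 82.4 CPM), the library with Vip and Cck counts. Both calls (edgeR adjusted p = 0.0121 and 0.0349) ended without it, at 0 counts. The deep chandelier count was then 18 in place of 15, with Kcnt2, Kcnj3, Kcnma1, Kcnd2 and Kcns3 passing in addition. The share of all genes called in that fit is not given here, so the rise cannot be read as particular to these genes. In CCK basket cells, library 1 held 98.5% of Kcnj2, library 2 held 100% of Kcnk9 (41.5 CPM), an acid-sensitive leak channel, and library 3, with the most astrocyte marker counts, held 98.6% of Kcnrg (29.2 CPM), a regulator of channel assembly that no longer passed the filter on low counts without long-projecting library 2. In interneuron-selective cells library 3, with the oligodendrocyte markers, held 100% of Kcnmb3 (25.6 CPM), a further BK subunit, and 85.8% of Kcnk18 (88.8 CPM), a calcium-regulated leak channel. Without it Kcnk18 did not pass (edgeR adjusted p = 0.482) and Kcnmb3 had no count in the type. The part of other cells in these levels was not tested.

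**Figure D5:**
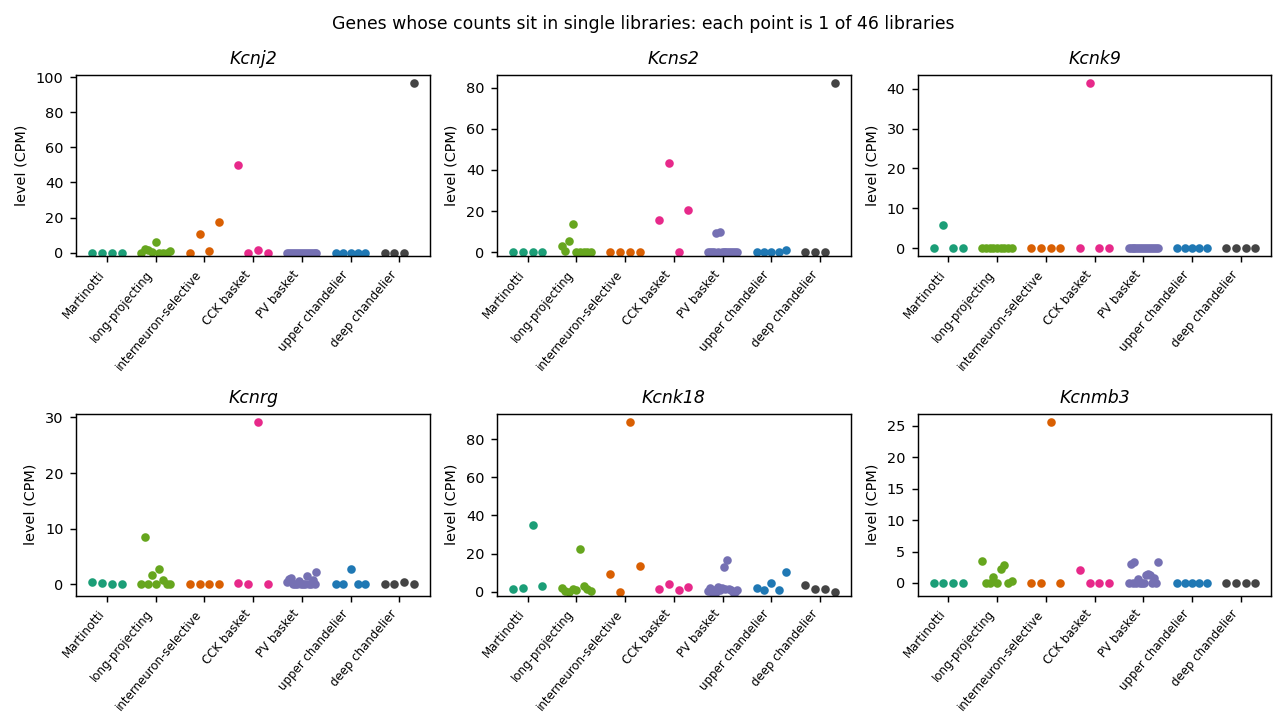
Each point is the level in CPM of a gene in 1 of the 46 libraries, by type. In each panel a single library of a type stands far above the others of that type, such as deep chandelier library 4 for Kcnj2 and Kcns2.

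Closely related types were also set against each other in the same fit. Between Martinotti and long-projecting cells, which share the Sst driver, 5 members were called (3.91% of all genes). Kcnk13 and Kcns3 were higher in Martinotti cells (1.8% of all genes) and Kcnip3, Kcnip4 and Kcnv1 lower (2.11%). Kcnk13 was at a mean of 88.4 against 1.85 CPM (log2 difference 5.47 ± 0.83, edgeR adjusted p = 0.0023), and Kcnip4 was at 18.9 against 186 CPM (-3.44 ± 0.57, adjusted p = 0.00422). Kcns3 was at 71.4 against 13.9 CPM (log2 difference 2.28 ± 0.51, edgeR adjusted p = 0.0247), a call lost in 5 of 16 fits leaving out 1 replicate (largest edgeR adjusted p = 0.0901). Kcnv1 had 1 count in Martinotti cells (0.172 and 0 CPM), where the long-projecting mean of 38.7 CPM was 321 times the pooled level (95% counting interval 57.6 to 12677). That call was lost without either Martinotti animal. It is no support and its test is not given, since Kcnv1 is a member only through its level in long-projecting cells. The Kcnip3 call was lost without deep chandelier library 4 (edgeR adjusted p = 0.0578). Between the 2 Vip types (1.35% of all genes called, 0.328% higher and 1.02% lower in interneuron-selective cells), interneuron-selective cells had 2 lower calls, Kcnip1 (281 against 736 CPM, log2 difference -1.65 ± 0.32, edgeR adjusted p = 0.028) and Kcnd2 (290 against 630 CPM, -1.40 ± 0.30, adjusted p = 0.0408).

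Between upper chandelier and PV basket cells (0.399% of all genes called, 0.264% higher and 0.135% lower in chandelier cells), Kcnd2 (1364 against 413 CPM, log2 difference 1.66 ± 0.30, edgeR adjusted p = 0.032) and Kcnd3 (194 against 19.1 CPM, 3.28 ± 0.62, adjusted p = 0.033) were higher in chandelier cells. Between upper and deep chandelier cells (2.83% of all genes called, 1.76% higher and 1.08% lower in the upper cells), Kcnab1 (107 against 337 CPM) and Kcnab2 (113 against 325 CPM) were lower in the upper cells (log2 difference -1.95 ± 0.47 and -1.83 ± 0.45, edgeR adjusted p = 0.044 and 0.0474). Kcnf1 and Kcnip2 were higher in upper cells, at 4.16 and 7.47 CPM against 0 counts in deep cells. The Kcnab1 call was lost without interneuron-selective library 3 (edgeR adjusted p = 0.0624), the Kcnab2 call without upper chandelier library 1 (0.051) and the Kcnip2 call without long-projecting library 2 (0.0504). Without upper chandelier library 1, or without interneuron-selective library 3, the Kcnf1 call was lost (edgeR adjusted p = 0.0741 and 0.0645). Each of the 4 calls between Vip types or between chandelier and PV basket cells was lost in at least 8 of 16 fits leaving out 1 replicate.

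Only 2 pairs of types shared a flow cell, so type and flow cell cannot be told apart in the other comparisons. Long-projecting and upper chandelier cells shared one, and a fit of those 6 replicates called 16 of 39 members (16.4% of all genes), 6 higher (9.19%) and 10 lower (7.23%) in long-projecting cells. Kcnmb4 (log2 difference 3.98 ± 0.30, edgeR adjusted p = 2.45e-05), Kcnv1 (5.16 ± 0.56, test not given) and Kcnn3 (3.06 ± 0.53, edgeR adjusted p = 0.00337) were higher. Kcnt2, Kcnf1 and Kcnip4 were higher too. Kcnj3 (log2 difference -3.73 ± 0.32, edgeR adjusted p = 4.77e-05), Kcnmb2 (-2.42 ± 0.25, adjusted p = 0.000163) and Kcnn2 (-2.27 ± 0.44, adjusted p = 0.00628) were lower, with Kcnj6, Kcnj12, Kcnab2, Kcnab3, Kcns3, Kcnk3 and Kcnt1. Kcnk10 did not pass there (1.06 ± 0.38, edgeR adjusted p = 0.0855), nor did Kcnd2 (-0.45 ± 0.16, adjusted p = 0.0774). Martinotti and interneuron-selective cells shared the other, with 4 replicates. Of 34 members tested 1 was called (0.637% of all genes, 0.273% higher and 0.364% lower), Kcnip4, at -4.67 ± 0.45 in Martinotti cells (edgeR adjusted p = 0.00862). Kcnk13 did not pass in that fit (edgeR adjusted p = 0.0622).

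Of 22 genes coding partners of these channels or related channels, 21 were tested and 11 differed between types, against the same 25% of all genes. The median log2 difference of these 21 genes was 0.22 in long-projecting and -0.32 in interneuron-selective cells. Among others, long-projecting cells were higher for Dpp6 and Lrrc55 and lower for Rgs7 and Rgs7bp. Dpp6, which joins Kv4 channels, differed by 0.81 ± 0.15 on the log2 scale (edgeR adjusted p = 0.00255), and Rgs7bp, which anchors a regulator of G protein-gated channels, by -1.97 ± 0.27 (adjusted p = 0.000236), in the cells with the lowest Kcnj3. Interneuron-selective cells were lower for Dpp6 (-1.03 ± 0.23, edgeR adjusted p = 0.0129) as for Kcnd2, and also for Calm2 and Gnb5, and higher for Abcc9. In CCK basket cells Dpp10 was higher, and in PV basket cells Calm3 and Lrrc38 were higher and Dpp10 lower. Lrrc38, an accessory BK subunit, was at 49.1 and 49.8 CPM in PV basket cells (log2 difference 2.55 ± 0.58, edgeR adjusted p = 0.0258). Interneuron-selective cells held Lrrc38 at 5.82 and 42.7 CPM. Deep chandelier cells were higher for Rgs7bp and Snx27 and lower for Dpp6, and upper chandelier cells had no call. Snx27 was at 210 CPM in deep chandelier animal 11 but at 57.2 CPM in animal 12, within the 49.9 to 111 CPM of the other types. How the calls of these partner genes held in the other fits is not given here.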

How the data were processed

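The authors deposited 1 table of estimated counts per gene and cell, not normalized, in which 4.07% of the values above 0 were not whole. The submitters' processing notes name Bowtie 0.12.7 and the mm9 build. How tags and shared reads were counted: not given in the sources used here. Cells were mapped to libraries through the deposited cell list and to types and animals through the labels. Counts were summed per animal (PV basket animals 7 and 8, and 9 and 10, together), giving 16 replicates.

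The deposited expected counts, summed and then rounded to whole numbers, were fitted with edgeR 4.0.16 in R 4.3.3 (filterByExpr by type, TMM, robust quasi-likelihood), 7 types in 1 fit, with Benjamini-Hochberg adjustment over 15533 genes and a threshold of 0.05. The scripts were tested on simulated data. The genes, lists and groupings were chosen with earlier results of these data known. All members could be named, with values per replicate for members called at 20 CPM or more in the higher group, at most 4 higher and 3 lower per type and 3 per side for each pair of types, and for even members; some genes are not reported here; other called members are given with theirs too, chosen after their values were seen. Alternatives were DESeq2 1.42.0, no filter, 18 separate animals, a spread set for each type (limma 3.58.1), each replicate left out, and interneuron-selective library 3 left out. Leaving out long-projecting library 2, deep chandelier library 4 or upper chandelier library 1 was added after seeing the data. Floors are 3 counts over a type, and they and the 95% exact Poisson intervals cover counting error only. Promoter windows are RefSeq's on GRCm38.p6 and were not joined to the mm9 alignment by position.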

Additional observations from a re-analysis of the deposited data

Results flagged for a closer look

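In a group of 4 replicates, a value whose gap to its nearest neighbour exceeds 0.829 of the group's range was picked out, which chance does in about 1 of 20 groups. Only long-projecting cells have 4 replicates. Kcnk10 was at 21.0 CPM in animal 18, below the other 3 at 32.5 to 34.7 CPM. Kcnk18 was at 13.6 CPM in animal 17, above the other 3 at 0.973 to 1.08 CPM. Only the members that the naming rule picked for full values per replicate were looked at, not all 49 genes. The number of values picked out was not compared with what chance would give.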

How the results depend on the processing

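Where every type was given its own spread, called members numbered 1 in Martinotti, 21 in long-projecting, 4 in interneuron-selective, 5 in CCK basket, 17 in PV basket, 6 in upper chandelier and 2 in deep chandelier cells, 3 between Martinotti and long-projecting, 10 between upper chandelier and PV basket, and 0 both between the Vip types and between the chandelier types. DESeq2 called 3 in upper chandelier cells, 9 between Martinotti and long-projecting, 5 between upper chandelier and PV basket, 9 between the chandelier types and 6 between the Vip types. With 18 separate animals the counts were 20 in PV basket and 4 in upper chandelier cells and 5 between upper chandelier and PV basket cells, and with no filter 2 in upper chandelier cells. Without interneuron-selective library 3 they were 5 in Martinotti cells and 2 between the chandelier types. Without upper chandelier library 1 they were 5 in Martinotti and 3 in upper chandelier cells. Leaving out each replicate in turn gave 20 to 32 members differing between any types, 3 to 10 in Martinotti, 9 to 16 in long-projecting, 6 to 12 in interneuron-selective, 4 to 14 in CCK basket, 0 to 13 in PV basket, 0 to 4 in upper chandelier and 11 to 17 in deep chandelier cells. It gave 2 to 6 between Martinotti and long-projecting, 0 to 3 between upper chandelier and PV basket, 0 to 6 between the chandelier types and 0 to 3 between the Vip types. The 0 in PV basket cells came without animals 7 and 8, which leaves 1 PV basket replicate, assumed to vary like the other groups. The cause of these changes was not tested. The shares of all genes called in these fits are not given beside the counts. A change in a count therefore cannot be read as particular to the channel genes. No call that the naming rule picked for full values per replicate changed direction in any of these fits. The direction of the other calls in these fits was not looked at. No paired analysis was possible because each labelled animal belongs to 1 type and the numbers in the titles only count libraries. The 2 replicates of most types limit every comparison, and levels near the 3-count floor (0.143 to 0.968 CPM by type) cannot rank types.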
